A study of Mus musculus with 4 samples.

Results

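RNA of 10 genes that hold back the cell cycle or are read as markers of cellular senescence was compared between aged and young whole mammary fat pad (MFP) tissue of the mouse. They were taken by gene symbol from a count table of 55487 genes, and all 10 were found and passed the filter on low counts, which kept 22485 genes. The genes are 6 inhibitors of cyclin-dependent kinases (Cdkn1a, Cdkn1b, Cdkn2a, Cdkn2b, Cdkn2c and Cdkn2d), the tumour suppressor Trp53 and its inhibitor Mdm2, the nuclear lamina gene Lmnb1, and Glb1, which encodes lysosomal beta-galactosidase. None of them passed the test of a difference between the ages, and for several of them the direction or the size of the difference rested on a single young library.

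Cyclin-dependent kinases drive a cell from rest into DNA synthesis by phosphorylating the retinoblastoma protein, which then releases E2F transcription factors. The INK4 inhibitors, encoded by Cdkn2a to Cdkn2d, bind the kinases that partner D-type cyclins. The CIP/KIP inhibitors, which include the products of Cdkn1a and Cdkn1b, act on a wider range of cyclin and kinase complexes. The p53 protein induces Cdkn1a after DNA damage and also induces Mdm2, the ubiquitin ligase that degrades p53. Senescent cells leave the cycle for good, and in many settings they carry more p16 (from Cdkn2a) and p21 (from Cdkn1a), less lamin B1 and more lysosomal beta-galactosidase activity, and in fat such cells can arise among preadipocytes and adipocytes, among other types.

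Total RNA was sequenced after depletion of ribosomal RNA, with a kit that keeps the strand, from 2 aged (Old in the labels, 14 months) and 2 young (8 weeks) female C57BL/6J mice. The ages in weeks and months come from a protocol that all samples share, while each sample's title says only Old or Young. The study's methods name strain J for its mice in general, but C57BL/6NCrl for those with mammary fat pad injections. The labels name no transgene, allele or treatment in either group, and they do not say whether a sample came from 1 animal. The tissue was cut up and lysed whole, so that a library mixes RNA from all its cell types, and fewer cells of a type cannot be told apart from less RNA per cell. Total counts ran from 68803304 to 98402403 per library, and levels are given as CPM, counts per 1000000 of the library total after TMM scaling, where 3 counts correspond to 0.0337 to 0.0406 CPM (counting error only).

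The adipocyte markers (10 genes, among them Adipoq and Plin1) were present in every library, with summed levels of 8735 and 9175 CPM in the young and 11058 and 13178 CPM in the aged samples. Young replicate 1 stood apart in its lymphocyte genes. The 8 B and T cell markers (such as Ms4a1 and Cd3e) summed to 709.7 CPM in it, against 4.14 CPM in young replicate 2 and 9.46 and 71.5 CPM in aged replicates 1 and 2, and all 8 were highest in it, with no marker at 0 in any library. The 12 proliferation markers (such as Mki67 and Top2a) summed to 205 CPM in young replicate 1, 86.8 CPM in young replicate 2, and 53.5 and 88.1 CPM in the aged samples, and all 12 were highest in young replicate 1. The 12 skeletal muscle markers summed to 10027 and 14020.3 CPM in young and 38935 and 61636 CPM in aged MFP, with both aged samples above both young samples for all 12. The macrophage markers summed to 251 to 543 CPM in young and 331 to 391.6 CPM in aged MFP, the 8 mammary epithelial markers to 914 to 2218 CPM and 1670.1 to 1702 CPM, the 8 fibroblast and stromal markers to 3278 to 3811 CPM and 1634 to 2243 CPM, the 7 endothelial markers to 571 to 657 CPM and 637 to 856 CPM, and the 7 keratinocyte markers, of which Flg was at 0 in every library and Lor in 2 of them, to 7.95 to 20.6 CPM and 5.42 to 7.41 CPM. What part these cell types have in the results that follow was not tested. Because of young replicate 1, each member is given with and without that library.

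**Figure D1:**
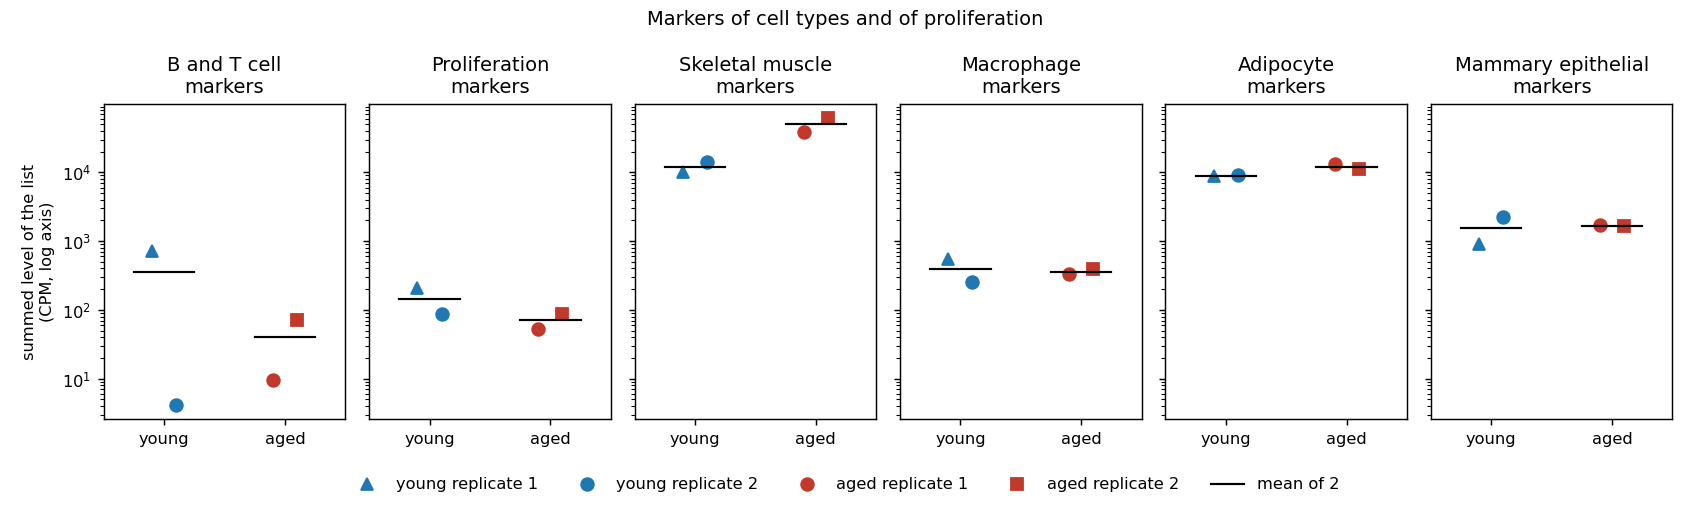
Summed level (CPM, log axis) of 6 lists of marker genes in each library, young in blue and aged in red, with the mean of 2 samples as a black line. The B and T cell sum of young replicate 1 (triangle), 709.7 CPM, lies above those of the other libraries, at 4.14 to 71.5 CPM, and the muscle sums of both aged samples lie above those of both young samples.

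Aged and young MFP were compared with the quasi-likelihood test of edgeR, adjusted by Benjamini-Hochberg over the 22485 genes, and all edgeR p-values here come from it. It called 0 genes (0%) at an adjusted p of 0.05 and 0 of the 10 members. At an unadjusted p under 0.05 there were 0 of the 10 members, where all genes tested gave 10.5% (7.24% higher and 3.31% lower in aged MFP). DESeq2, which the study's methods name for this tissue, called 3.67% of the 23039 genes to which it gave an adjusted p and 0 of the 10 members. The log2 fold change of aged over young MFP was positive for 5 members and negative for 5, with a median of 0.00. Over all genes tested it was positive for 10558 and negative for 11927, with a median of -0.04. Both aged samples lay above both young samples for 3 members (Cdkn1a, Cdkn2a and Cdkn2b) and below them for 2 (Trp53 and Lmnb1). Over all genes tested 23.3% and 22.8% did so, 46.1% in either direction, so that 5 of 10 is close to the background. An exact two-sided permutation test of 1 gene in 2 samples per age cannot reach a p under 0.333.

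**Figure D2:**
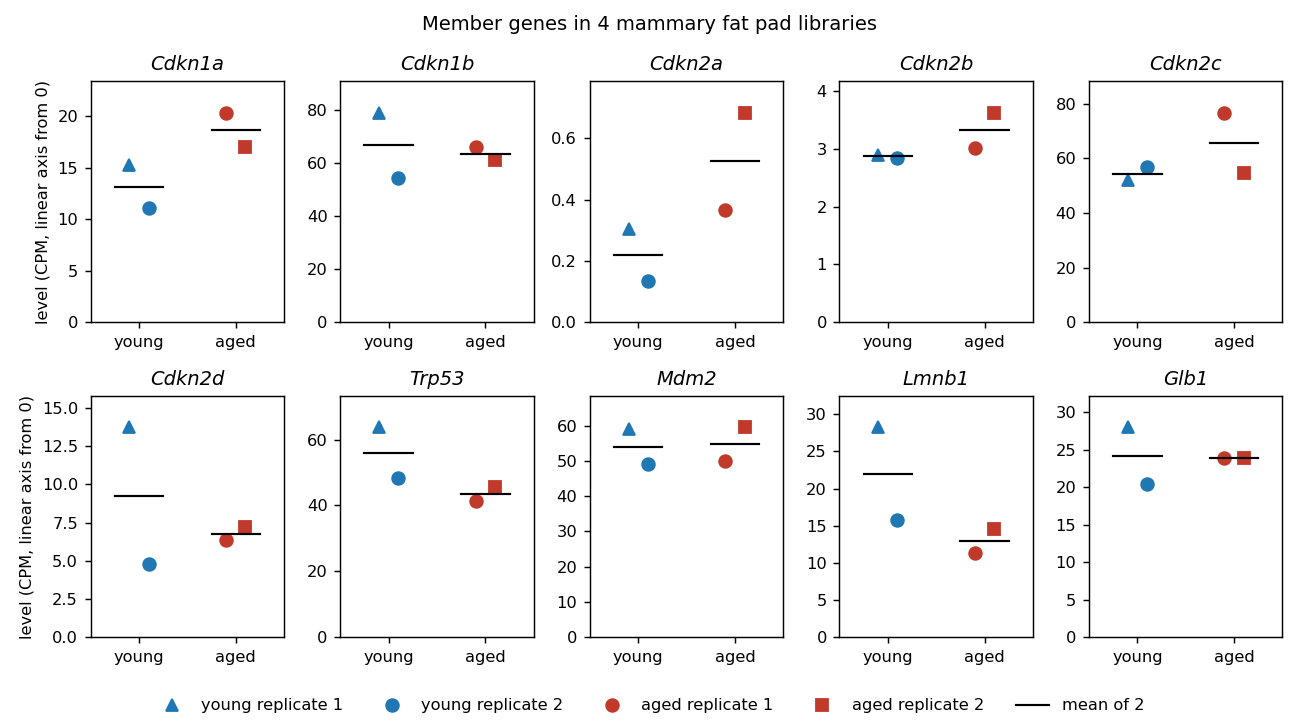
Level of each member (CPM, linear axes from 0) in each library, young in blue and aged in red, with the mean of 2 samples as a black line. Young replicate 1 (triangle) is the highest library for Cdkn1b, Cdkn2d, Trp53, Lmnb1 and Glb1, while both aged samples lie above both young samples for Cdkn1a, Cdkn2a and Cdkn2b.

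Of the CIP/KIP inhibitors, Cdkn1a (ENSMUSG00000023067, chromosome 17 of GRCm38, 29090976 to 29100727, plus strand) encodes p21, the main p53-induced inhibitor. Its gene model starts transcripts at separate places, and the count of the gene sums all of them. The 250 bases before each start that RefSeq gives (GRCm38.p6) are shown so that the starts can be told apart, with any p53 half-site or E2F site in capitals.
Cdkn1a, upstream start, chr17:29090729-29090978, plus strand: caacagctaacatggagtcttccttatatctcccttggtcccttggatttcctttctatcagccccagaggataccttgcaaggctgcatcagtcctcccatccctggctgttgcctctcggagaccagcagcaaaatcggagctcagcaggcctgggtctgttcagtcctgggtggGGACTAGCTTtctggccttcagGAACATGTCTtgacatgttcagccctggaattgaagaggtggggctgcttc
Cdkn1a, downstream start, chr17:29093519-29093768, plus strand: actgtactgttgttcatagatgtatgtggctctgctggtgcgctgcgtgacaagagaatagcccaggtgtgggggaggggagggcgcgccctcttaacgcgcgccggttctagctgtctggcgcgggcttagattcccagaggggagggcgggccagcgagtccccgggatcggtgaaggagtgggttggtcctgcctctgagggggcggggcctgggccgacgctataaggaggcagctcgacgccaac
The window of the upstream start holds 2 matches to the p53 half-site, beginning 73 and 51 bases before the start, and that of the downstream start holds none. Sites outside these windows, or with letters that depart from the motif, were not looked for.

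Cdkn1a was at 20.4 and 17.0 CPM in aged replicates 1 and 2 and at 15.3 and 11.1 CPM in young replicates 1 and 2. The ages did not overlap, but young replicate 1 was closer to aged replicate 2 than to young replicate 2. The mean was 18.7 ± 2.35 CPM (SD, n = 2) with age and 13.2 ± 2.97 CPM (SD, n = 2) at 8 weeks. Its log2 fold change, aged over young, was 0.50 (SE, standard error, 0.25, 95% interval -0.17 to 1.18, edgeR adjusted p = 0.525). Without young replicate 1 it was 0.75 (SE 0.21, edgeR unadjusted p = 0.0198 and adjusted p = 0.341). The gene on the other strand that overlaps 273 bases of its exons, AC167363.2, had at most 2 counts in a library.

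Cdkn1b (ENSMUSG00000003031, chromosome 6, 134920401 to 134925513, plus strand) encodes p27, which holds resting cells out of the cycle and is regulated largely through protein stability. It was at 66.0 and 61.1 CPM in the aged samples, between young replicate 2 at 54.6 CPM and young replicate 1 at 79.2 CPM. The young samples spread more widely than the ages differed, and the log2 fold change was -0.07 (SE 0.22, 95% interval -0.69 to 0.54, edgeR adjusted p = 0.901). Without young replicate 1 it was 0.22 (edgeR adjusted p = 0.618).

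Of the INK4 inhibitors, Cdkn2a (ENSMUSG00000044303, chromosome 4, 89274471 to 89294653, minus strand) produces unrelated proteins from its alternative first exons. The transcript from the upstream start encodes p19Arf, which binds Mdm2, and that from the downstream start encodes p16Ink4a, an inhibitor of the kinases of D-type cyclins. A count per gene cannot separate them. The 250 bases before each start (RefSeq, GRCm38.p6) show the separate promoters behind the single count, with the same motifs in capitals.
Cdkn2a, upstream start (p19Arf), chr4:89294620-89294869, minus strand: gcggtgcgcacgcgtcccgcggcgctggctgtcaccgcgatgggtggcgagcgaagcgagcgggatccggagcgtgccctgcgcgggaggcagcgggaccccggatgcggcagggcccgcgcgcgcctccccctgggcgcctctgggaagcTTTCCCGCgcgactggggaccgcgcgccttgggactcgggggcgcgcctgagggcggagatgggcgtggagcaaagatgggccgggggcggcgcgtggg
Cdkn2a, downstream start (p16Ink4a), chr4:89282193-89282442, minus strand: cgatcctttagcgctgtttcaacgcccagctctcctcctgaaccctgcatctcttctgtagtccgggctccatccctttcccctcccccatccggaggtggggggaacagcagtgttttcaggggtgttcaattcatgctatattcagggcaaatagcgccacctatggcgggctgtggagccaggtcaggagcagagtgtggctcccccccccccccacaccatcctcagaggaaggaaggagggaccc
An E2F site begins 99 bases before the upstream start, and the window of the downstream start holds neither motif.

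Cdkn2a was the lowest of the members, with 30 and 61 counts in aged replicates 1 and 2 and 25 and 10 counts in young replicates 1 and 2. These correspond to 0.367 CPM (exact 95% Poisson interval 0.247 to 0.524) and 0.685 CPM (0.524 to 0.879) in the aged and to 0.305 CPM (0.197 to 0.450) and 0.135 CPM (0.0650 to 0.249) in the young samples. The intervals of aged replicate 1 and young replicate 1 overlap, so that a difference between these libraries was not detectable at this depth, whereas that of young replicate 2 lies below that of aged replicate 2. The aged samples differed from each other 1.87-fold and the young samples 2.25-fold, against 2.39-fold between the means of the ages. Cdkn2a had a log2 fold change of 1.25 (SE 0.61, 95% interval -0.43 to 2.93, edgeR adjusted p = 0.526), and it was 0.73 without aged replicate 2, 1.61 without aged replicate 1, 1.95 without young replicate 1 and 0.80 without young replicate 2. The unadjusted p without young replicate 1 was 0.0406 in the same test, and the adjusted p was 0.395.

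Cdkn2b (ENSMUSG00000073802, chromosome 4, 89306299 to 89311039, minus strand), the neighbour of Cdkn2a, encodes p15, an inhibitor known for its induction by TGF-beta. It was at 3.02 and 3.63 CPM in the aged and 2.89 and 2.84 CPM in the young samples. Aged replicate 1 lay just above the young samples, which were nearly equal, and aged replicate 2 lay further up. The exact 95% Poisson intervals of all libraries overlapped, with aged replicate 2 at 3.24 to 4.04 CPM. Those of young replicates 1 and 2 were 2.53 to 3.28 and 2.47 to 3.26 CPM. The log2 fold change of Cdkn2b was 0.21 (SE 0.27, 95% interval -0.52 to 0.95, edgeR adjusted p = 0.749). It was 0.22 without young replicate 1, and Cdkn2b was the member that moved least with that library.

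Cdkn2c (ENSMUSG00000028551, chromosome 4, 109660876 to 109667189, minus strand) encodes p18, an INK4 protein with a part in differentiation, adipocytes and muscle included. It was at 76.8 CPM in aged replicate 1, while aged replicate 2 at 54.5 CPM lay between the young samples at 52.0 and 56.9 CPM. The difference therefore rested on aged replicate 1, without which the log2 fold change of 0.27 (SE 0.21, edgeR adjusted p = 0.618) became -0.01, while it was 0.21 without young replicate 1. It was the only member for which young replicate 1 was the lowest library.

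Cdkn2d (ENSMUSG00000096472, chromosome 9, 21288410 to 21291407, minus strand) encodes p19Ink4d, an INK4 inhibitor whose level changes over the cell cycle. Young replicate 1 held 13.7 CPM and young replicate 2 4.77 CPM, on either side of the aged samples at 6.36 and 7.18 CPM. The young samples thus differed 2.88-fold, the widest difference between replicates among the members, while the aged samples differed 1.13-fold. For Cdkn2d the log2 fold change was -0.45 over the 4 libraries (SE 0.56, 95% interval -1.98 to 1.08, edgeR adjusted p = 0.744), 0.50 without young replicate 1 and -1.01 without young replicate 2. Its direction followed which young library was kept.

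Taken per kilobase of exon, where genes can be compared, the INK4 level summed to 35.1 and 28.04 CPM per kilobase in the aged and 30.4 and 26.4 CPM per kilobase in the young samples. Cdkn2c made up 63.6% to 81.4% of that sum in every library. Cdkn2a made up 0.891% and 2.08% with age and 0.855% and 0.438% at 8 weeks, both aged samples above both young samples. The shares of aged replicate 1 and young replicate 1 rest on 30 and 25 counts of Cdkn2a, so their order lies within counting error. Cdkn2d made up 28.7% in young replicate 1 and 11.5% to 16.3% in the other libraries. The ratio of Cdkn2a to Cdkn2b counts, genes that lie side by side, was 0.121 and 0.189 with age and 0.105 and 0.0476 at 8 weeks, so the order of the ages is kept without any scaling between libraries, although aged replicate 1 and young replicate 1 are close.

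Trp53 (ENSMUSG00000059552, chromosome 11, 69580359 to 69591873, plus strand) encodes p53, which is controlled mostly through the stability of the protein. It was at 41.5 and 45.7 CPM in the aged and 63.7 and 48.3 CPM in the young samples. Both aged samples were below both young samples, with aged replicate 2 and young replicate 2 close to each other. Trp53 had a log2 fold change of -0.36 (SE 0.19, 95% interval -0.89 to 0.16, edgeR adjusted p = 0.537), -0.15 without young replicate 1 and -0.54 without young replicate 2.

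Mdm2 (ENSMUSG00000020184, chromosome 10, 117688875 to 117710758, minus strand) encodes the ligase that degrades p53. The 250 bases before its RefSeq start (GRCm38.p6) are shown beside those of Cdkn1a because p53 induces both genes. The better known p53 sites of Mdm2 lie inside the gene, outside this window.
Mdm2, chr10:117710759-117711008, minus strand: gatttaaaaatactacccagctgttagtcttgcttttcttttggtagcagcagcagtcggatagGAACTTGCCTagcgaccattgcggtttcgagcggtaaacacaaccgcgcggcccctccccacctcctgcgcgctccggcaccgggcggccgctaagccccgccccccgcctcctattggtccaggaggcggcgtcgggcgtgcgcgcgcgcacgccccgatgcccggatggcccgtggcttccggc
A p53 half-site begins 186 bases before the start. Mdm2 was at 50.02 and 59.5 CPM in the aged and 59.0 and 49.0 CPM in the young samples, which overlapped. Its log2 fold change was 0.02 (SE 0.18, 95% interval -0.46 to 0.50, edgeR adjusted p = 0.967), an interval that leaves room for folds from 0.726 to 1.42. Without young replicate 1 it was 0.16. Mdm2 relative to Trp53 in the same library was at 1.21 and 1.30 with age and 0.926 and 1.01 at 8 weeks, with both aged samples higher. This ratio was not tested, and both aged samples were below both young samples in its denominator, Trp53.

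The motifs were looked for on both strands of the 300-base windows (250 bases before to 50 after a start) of 9 members. The E2F site was spelled TTTCCCGC, TTTCGCGC, TTTGCCGC or TTTGGCGC, and 2.26% of the 32851 RefSeq windows held it, against 1 of the 12 windows of the members. The p53 half-site, a 10-base motif that reads alike on either strand, was in 8.36% of all windows and in those of Cdkn1a (upstream start), Cdkn2d, Trp53 and Mdm2. The matches of the motifs do not overlap, and a match is a match of letters only.

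Lmnb1 (ENSMUSG00000024590) encodes lamin B1, a protein of the nuclear lamina. It was at 11.4 and 14.5 CPM in the aged and 28.2 and 15.8 CPM in young replicates 1 and 2. Both aged samples were below both young samples, but aged replicate 2 and young replicate 2 lay close together. For Lmnb1 the log2 fold change was -0.77 (SE 0.35, 95% interval -1.74 to 0.21, edgeR adjusted p = 0.515), the most negative value among the members, and without young replicate 1 it was -0.29 (SE 0.23, edgeR adjusted p = 0.645). Without young replicate 2, so that the aged samples were set against young replicate 1 alone, it was -1.11 (edgeR unadjusted p = 0.0078 and adjusted p = 0.0825). Relative to Lmna, which encodes the A-type lamins, Lmnb1 counts were at 0.0530 and 0.0759 with age and 0.224 and 0.0759 in young replicates 1 and 2. In that ratio, which needs no scaling, aged replicate 2 and young replicate 2 were level and young replicate 1 stood alone, as it did for the B and T cell and proliferation markers. Lmna itself was lowest in young replicate 1, at 126 CPM against 191 to 215 CPM elsewhere, so the ratio there also reflects its denominator.

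Glb1 (ENSMUSG00000045594, chromosome 9, 114401076 to 114474898, plus strand) encodes the enzyme behind senescence-associated beta-galactosidase staining, which reads its activity and not its RNA. It was at 23.8 and 23.9 CPM in the aged samples, between young replicate 2 at 20.4 CPM and young replicate 1 at 27.97 CPM. Glb1 had a log2 fold change of -0.02 (SE 0.22, 95% interval -0.62 to 0.58, edgeR adjusted p = 0.974) and 0.23 without young replicate 1. Tmppe, which had 943 to 1725 counts per library, shares 165 exon bases with Glb1 on the same strand, so reads there could belong to either gene.

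**Figure D3:**
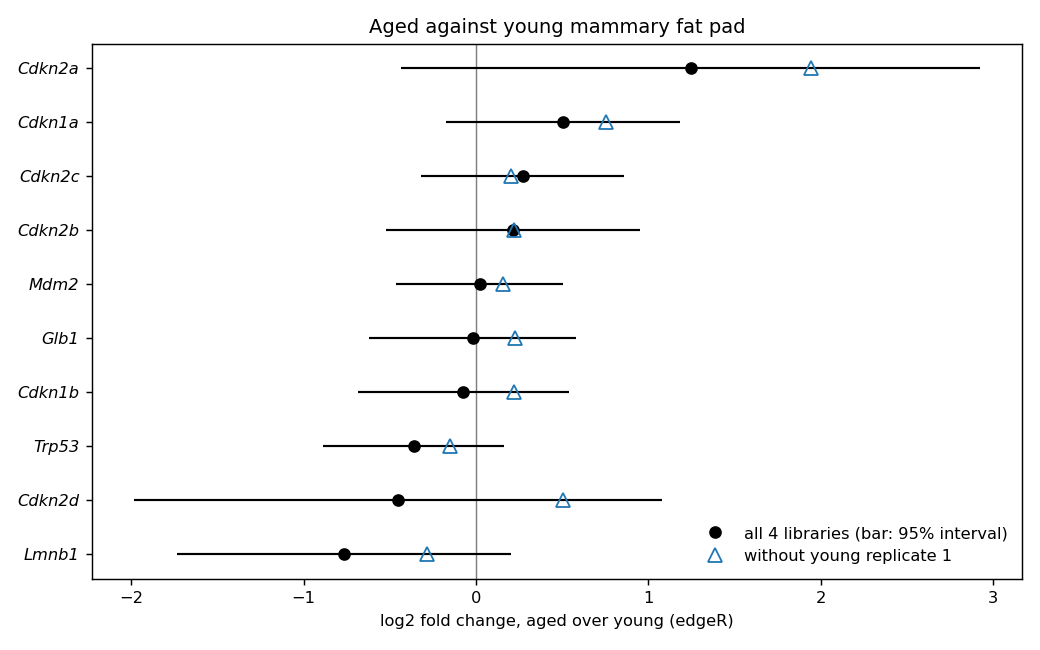
Log2 fold change of aged over young MFP for the 10 members from edgeR, over all 4 libraries (black points, bars for the 95% interval) and without young replicate 1 (open triangles). All 10 bars cross 0, and Cdkn2d, Cdkn1b and Glb1 change sign when young replicate 1 is left out.

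Leaving out young replicate 1 thus moved the median log2 fold change of the 10 members from 0.00 to 0.22, with 8 of the 10 then positive. Over all genes tested the median moved from -0.04 to 0.02, with 11627 positive and 10841 negative without young replicate 1. Without it, 2 members had an unadjusted p under 0.05, Cdkn1a and Cdkn2a, where 12.1% of 23357 genes did (7.24% higher and 4.88% lower in aged MFP). Without young replicate 2, 3 members had one, Cdkn2d, Lmnb1 and Trp53, all lower in aged MFP, where 27.9% of 23981 genes did (13.2% higher and 14.7% lower). In these fits 1 young sample is assumed to vary as the aged samples do, and no gene passed an adjusted p of 0.05 in either (0 genes). Young replicate 1 was the highest library for 5 of the 10 members (Cdkn1b, Cdkn2d, Trp53, Lmnb1 and Glb1) and for 34.1% of all genes tested.

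Per kilobase of exon, and over the 4 libraries, Cdkn2c was highest at 22.3 ± 4.23 CPM per kilobase (SD, n = 4), above 92.4% of the 22426 tested genes with a known length, and no library of Cdkn1b reached its range. Cdkn1b followed at 14.3 ± 2.29, Trp53 at 12.3 ± 2.40 and Mdm2 at 10.7 ± 1.11 CPM per kilobase (SD, n = 4), neighbours whose ranges over the libraries overlap. Glb1 at 7.98 ± 1.03, Lmnb1 at 5.90 ± 2.50, Cdkn2d at 5.09 ± 2.50 and Cdkn1a at 4.49 ± 1.09 CPM per kilobase (SD, n = 4) overlapped in turn, each with its highest library below the lowest of Mdm2. Cdkn2b at 2.23 ± 0.26 and Cdkn2a at 0.318 ± 0.196 CPM per kilobase (SD, n = 4) lay below, each apart from the gene before it, and Cdkn2a was above only 16.1% of genes tested. Divided by the longest transcript in place of all exons, Mdm2 came to 17.3 CPM per kilobase and ranked 2, with Cdkn1b at rank 4, and Cdkn1a came to 7.66 CPM per kilobase and ranked 6, so the order between Cdkn2c and Cdkn2b depends on the length taken.

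The genes of the surrounding pathways whose levels over the 4 libraries were nearest to each of 9 members, out of 133 tested, were found by the root mean square difference of log2 CPM, centred on each gene's mean. They were Hexa for Cdkn1a (0.10), Ccnd2 for Cdkn1b (0.04), Mmp12 for Cdkn2a (0.33), Zmpste24 for Cdkn2b (0.06), Igfbp7 for Cdkn2c (0.11), Lbr for Cdkn2d (0.10), Bax for Trp53 (0.03), Emd for Mdm2 (0.02) and Cdk6 for Glb1 (0.04). With 4 libraries, likeness of this kind describes these samples only. Lbr, like Cdkn2d, was highest in young replicate 1, at 96.0 CPM against 32.4 to 42.5 CPM in the other libraries.

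**Figure D4:**
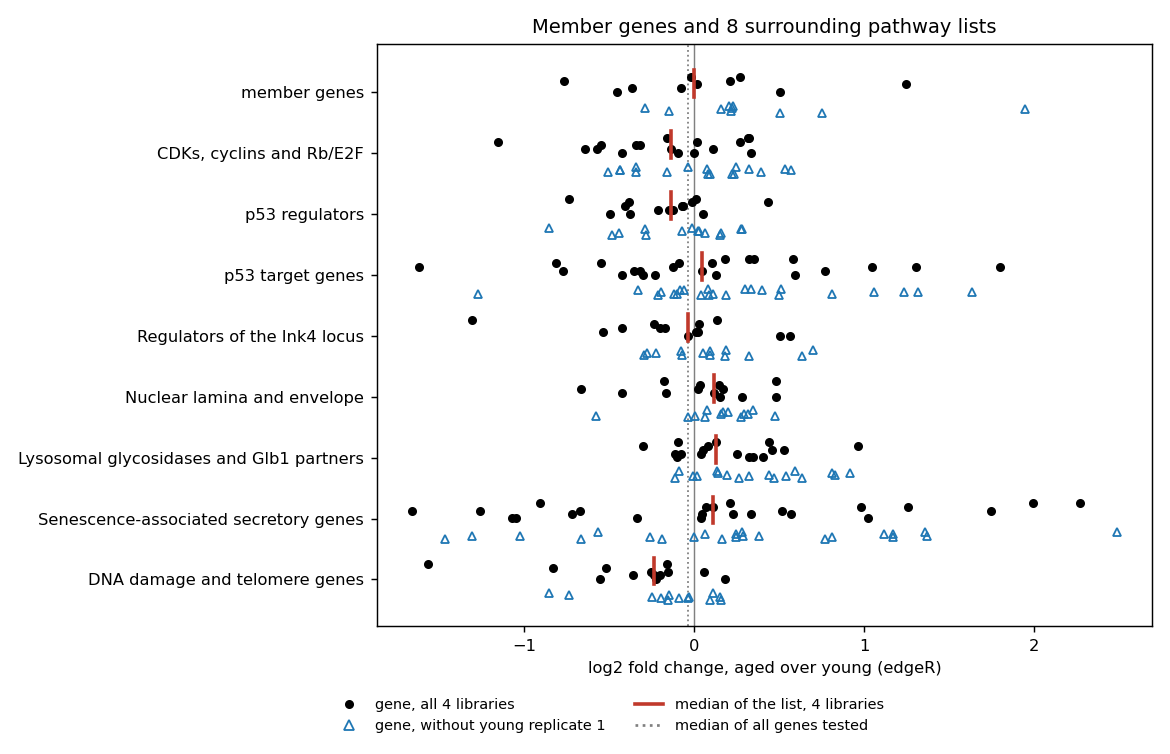
Log2 fold change of aged over young MFP from edgeR for each tested gene of the members and of 8 pathway lists, over all 4 libraries (points, red line for the list's median) and without young replicate 1 (open triangles). The list medians lie between -0.23 and 0.13, near the dotted line at -0.04 for all genes tested.

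The kinases, cyclins, pocket proteins and E2F factors of the pathway, listed together with the inhibitor gene Cdkn1c, did not pass the test either. Of 17 genes tested, edgeR called 0, with 6 positive and 11 negative log2 fold changes and a median of -0.13, or 0.08 without young replicate 1. Ccnd3, a D-type cyclin, was at 103 and 89.4 CPM in the aged and 193 and 108 CPM in the young samples, or a log2 fold change of -0.64 (edgeR adjusted p = 0.532) that was -0.16 without young replicate 1. E2f2, an E2F factor, was at 3.41 and 5.19 CPM in the aged and 15.02 and 4.08 CPM in the young samples, with -1.15 (edgeR adjusted p = 0.560) over the 4 libraries and 0.08 without young replicate 1. Both differences rested mostly on young replicate 1.

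Of 14 regulators of p53, edgeR called 0, with a median log2 fold change of -0.14 and 11 of the 14 negative, 0.01 and 7 of 14 without young replicate 1. The checkpoint kinase genes had the largest differences. Chek1 was at 1.78 and 2.02 CPM in the aged and 2.90 and 3.44 CPM in the young samples (log2 fold change -0.74, edgeR adjusted p = 0.488), and Chek2 was at 5.95 and 6.02 CPM against 8.49 and 8.36 CPM (-0.49, edgeR adjusted p = 0.501). For these genes the young replicates lay close together, and without young replicate 1 the values were -0.85 and -0.48.

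The 23 p53 target genes had 12 positive and 11 negative log2 fold changes, a median of 0.05 and 0 calls in edgeR. Eda2r, a p53-induced receptor of the TNF receptor family, was at 5.51 and 16.2 CPM in the aged and 2.73 and 3.48 CPM in the young samples, or a log2 fold change of 1.80 (SE 0.60, adjusted p = 0.460 by edgeR and 0.0678 by DESeq2). Pmaip1, the pro-apoptotic gene of Noxa, reached 6.77 CPM in young replicate 1 and 0.501 to 1.45 CPM elsewhere, so that its log2 fold change of -1.62 became 1.24 without that library. DESeq2 called 2 of the 23, both higher in aged MFP, where it called 3.03% of all genes higher. Both were chosen here after their values were seen. Ccng1, which encodes cyclin G1, was at 207 and 310.2 CPM in the aged and 126 and 124 CPM in the young samples (adjusted p = 0.404 by edgeR and 0.0260 by DESeq2). Tigar, a regulator of glycolysis, was at 29.3 and 53.7 CPM against 17.0 and 16.6 CPM (adjusted p = 0.417 by edgeR and 0.0326 by DESeq2). Muscle markers, higher in both aged samples, stand beside these values, and their part was not tested.

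Regulators of the Ink4 locus, mostly Polycomb proteins that silence it, gave 0 calls among 13 genes and a median of -0.04 (0.09 without young replicate 1). Ets1, a transcription factor abundant in lymphocytes, was at 398 CPM in young replicate 1 and 85.8 to 105 CPM in the other libraries, with a log2 fold change of -1.31 that was 0.19 without young replicate 1. Ets2, a related factor, was at 147 and 121 CPM in the aged and 73.7 and 107 CPM in the young samples (0.57, edgeR adjusted p = 0.501). The 13 lamina and envelope genes gave 0 calls and a median of 0.12, in which Lbr, the lamin B receptor, had -0.67 and 0.32 without young replicate 1, and Syne2, a nesprin that links nucleus and cytoskeleton, had 0.48 and 0.28.

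The 17 lysosomal glycosidases and partners of beta-galactosidase gave 0 calls in edgeR, with 12 positive log2 fold changes and a median of 0.13 (0.32 without young replicate 1). Gaa, the lysosomal enzyme that breaks down glycogen, was at 166 and 186 CPM in the aged and 86.9 and 92.9 CPM in the young samples, or a log2 fold change of 0.97 (SE 0.14, edgeR adjusted p = 0.360). It was the 1 gene of this list that DESeq2 called (adjusted p = 2.8e-04), and it was 0.92 without young replicate 1. Hexa, a subunit of beta-hexosaminidase, was at 68.0 and 68.1 CPM in the aged and 56.2 and 38.3 CPM in the young samples (0.53, edgeR adjusted p = 0.503). For Glb1 itself, both aged samples lay inside the young range.

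Of 26 genes of the senescence-associated secretory phenotype, 23 passed the filter and 0 were called by edgeR, with 15 positive and 8 negative log2 fold changes and a median of 0.11. Il6, Cxcl2 and Csf2 had too few counts to be tested, at most 11 in a library. Ccl8, a chemokine, was at 1.82 and 8.54 CPM in the aged and 1.22 and 0.921 CPM in the young samples (log2 fold change 2.27, SE 0.84, edgeR adjusted p = 0.477). Mmp13, a collagenase, was at 0.966 and 1.40 CPM against 0.134 and 0.461 CPM (1.99, SE 0.71, edgeR adjusted p = 0.469). DESeq2 called Mmp3, the protease stromelysin, at 18.1 and 20.6 CPM in the aged and 4.05 and 7.49 CPM in the young samples (adjusted p = 0.00159, against 0.385 from edgeR). It also called Plau, the urokinase gene, at 34.1 and 29.5 CPM against 12.7 and 18.6 CPM (adjusted p = 0.0449, against 0.409 from edgeR). These genes were named after their values were seen, as were Ccl2 and Plaur, both lower in aged MFP. Ccl2 was at 0.587 and 1.10 CPM in the aged and 1.95 and 2.09 CPM in the young samples (log2 fold change -1.26, edgeR adjusted p = 0.465). Plaur was at 3.79 and 4.10 CPM against 8.93 and 5.82 CPM (-0.90, edgeR adjusted p = 0.462). Both aged samples lay above both young samples for 7 of the 23 genes and below them for 4. Over all genes tested 23.3% and 22.8% did so.

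Among 13 genes of DNA damage repair and telomeres, 11 had negative log2 fold changes, with a median of -0.23 (-0.09 without young replicate 1) and 0 calls. Brca1, a repair gene expressed in cycling cells, was at 1.67 and 2.28 CPM in the aged and 8.11 and 3.58 CPM in the young samples (-1.56, edgeR adjusted p = 0.458). Without young replicate 1 it was -0.86. Across the 8 lists DESeq2 called 5 of the 136 genes listed, all higher in aged MFP. Over all genes it called 3.67%, with 3.03% higher and 0.642% lower, so the number called in the lists is close to the background.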

How the data were processed

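The authors deposited whole-number counts of reads per gene, 1 column per sample, neither normalized nor pooled. The processing notes of the submitters list featureCounts, R 3.6.1 and the builds GRCm38 and hg38, without roles, and the aligner, annotation release and strand setting are not given in the sources used here. Titles gave the age group (Old or Young) and number of each sample.

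From the deposited counts, everything was computed with R 4.3.3, edgeR 4.0.16 and DESeq2 1.42.0. Genes were kept by filterByExpr, scaled by TMM and tested with age as the only term by glmQLFit and glmQLFTest, two-sided, with Benjamini-Hochberg adjustment over all genes tested at 0.05. The standard error is the log2 fold change divided by the square root of F, log2 CPM uses a prior count of 2, and 95% Poisson intervals of single counts cover counting error only. Biological replicates are named as such in the titles, with no word on animals. The p-values weigh the difference between the ages against the spread between these samples, estimated with information shared over genes.

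The members, gene lists and tests were chosen with earlier results of these data known. Named are all 10 members, the 2 genes per pathway list whose log2 fold change was largest in size, the gene nearest to each member, and genes stated as chosen after their values were seen. Some items that this rule names are not reported here. Exon lengths, positions and overlaps come from GENCODE M21 (GRCm38), where 1 list symbol was matched by identifier. Promoter sequences come from RefSeq (GRCm38.p6) and were taken for 9 of the 10 members only. The code was tested on simulated counts. Alternatives tried were other scalings, filters and tests, the replicate number as a block, and leaving out each sample.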

Additional observations from a re-analysis of the deposited data

How the results depend on the processing

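The number of members called stayed at 0 in edgeR under 3 other scalings, 2 other filters, a fit without the legacy method, without mitochondrially encoded genes and skeletal muscle markers, with the replicate block, and with each sample left out (0 to 0), and in DESeq2. Over all genes edgeR called 0 under the same alternatives (0 to 0 with a sample left out), while DESeq2 called 845 (697 higher), or 3.67%. Of the pathway lists edgeR called 0 genes (0 to 0) and DESeq2 5 of 136. The cause of the difference between the tools was not tested. Scaling by total counts only moved the median log2 fold change of all genes from -0.04 to -0.21 and that of the members from 0.00 to -0.18, so that Mdm2, at 0.02, became -0.16, and it was -0.00885 with upper-quartile scaling. Under total counts only, Lmnb1 and Trp53, both lower in aged MFP, had unadjusted p-values of 0.0459 and 0.0403 in edgeR. In that fit 2749 of the 22485 genes tested had an unadjusted p under 0.05, of which 1010 were higher in aged MFP. Leaving out 1 sample at a time gave log2 fold changes of -0.11 to 0.16 for Mdm2, from -0.00985 to 0.50 for Cdkn2c, from -0.31 to 0.22 for Cdkn1b, from -1.01 to 0.50 for Cdkn2d and from -0.22 to 0.23 for Glb1, while Cdkn1a (0.30 to 0.75), Cdkn2a (0.73 to 1.95), Cdkn2b (0.07 to 0.33), Trp53 (-0.54 to -0.15) and Lmnb1 (-1.11 to -0.29) kept their direction. Per kilobase of the longest transcript in place of all exons, 5 of the 10 members kept their rank.

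The labels do not say that samples with the same replicate number belong together. Deviations from the group mean of samples with 1 number correlated at -0.48 over 22485 genes, which are not independent replicates. For crossed numbers the value was 0.48. With 2 samples per age these values mirror each other by construction, so their sign cannot show which samples, if any, are paired. With the replicate block 0 genes and 0 members were called, and 1346 genes had an unadjusted p under 0.05 against 2371 without it. A block that crosses the numbers, chosen after seeing the data, also called 0 genes and 0 members, with 2493 genes and 2 members at an unadjusted p under 0.05. With 2 samples per age the precision is set mainly by the spread between samples. For Cdkn2a, at 10 to 61 counts, and for Cdkn2b, at 210 to 323 counts, depth limits it as well.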
